A study of Homo sapiens with 6 samples.

Results

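The genes of the lysosome were followed in RNA sequencing of U87-MG, an established human glioblastoma cell line. The members were the 54 genes whose symbols stand on a list of lysosomal membrane proteins, hydrolases, proton pump subunits, sorting proteins and the transcription factors that act on them. All 54 symbols were found once each among the 61806 genes of the table. Of these, 50 passed the filter on low values, a mean of at least 0.5 FPKM (reads counted on the gene per length of exon and per library total) over the 6 libraries, and were tested among 15870 genes. TFEB, CLN3, CTSH and CTSZ were below it. The label NC, the negative control with a wildtype genotype, was carried by 3 libraries. The other 3 carried the label GRIK1 siRNA, with a genotype of GRIK1 knockdown, and the design text of the series speaks of an shRNA. GRIK1 encodes a subunit of the kainate type of glutamate receptor. The labels give neither a time after transfection nor separate cultures, and they do not say whether the siRNA numbers 1 to 3 are replicates or siRNA sequences. The p-values therefore measure only the spread between these libraries, which may be technical. The reads of the targeted gene were not lower in the libraries labelled GRIK1 siRNA, with 15, 20 and 20 reads against 18, 9 and 8 in the NC libraries. Counts this low leave its level imprecise. The study's paper reported an efficient knockdown of GRIK1 in U87-MG cells, and used the siRNA sequence it found most efficient in the experiments that followed. Because the reads were not lower here, the group is named by its label throughout, as the siRNA-labelled libraries.

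The lysosome is an acidic compartment in which proteins, glycans, sulfated sugars and lipids brought in by endocytosis and autophagy are broken down. A proton pump of many subunits, the V-ATPase, keeps the lumen acidic, and most hydrolases are carried there from the Golgi by receptors for mannose 6-phosphate. Many lysosomal genes have a CLEAR element, a palindrome built around CACGTG, close to their start, which is bound by the MiT/TFE factors TFEB, TFE3 and MITF. The kinase MTOR, on the lysosomal surface, holds these factors in the cytoplasm while nutrients are plentiful. In glioma, secreted cathepsins have been studied for the breakdown of matrix by invading cells.

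Total counts ran from 11099909 to 14006968 per library. NC library 3 stood apart. Over the tested lysosomal genes the log2 CPM of NC libraries 1 and 2 correlated with r = 0.999 and those of the siRNA-labelled libraries with r = 0.996 to 0.999, while NC library 3 reached r = 0.934 and 0.942 with the other NC libraries. Genes for ribosomal proteins took 9.37% of its counts, against 4.79% to 5.50% in the other 5 libraries. Counts of called members are therefore given with and without it. Among the markers of other cells, AIF1, CX3CR1, TYROBP, C1QA, C1QB and C1QC, 6 of 12 macrophage and microglia markers, had 0 counts in all libraries. Of the others, CSF1R had 50 to 90 reads per library, or 0.872 to 1.41 scaled FPKM, and CD14 had 2 to 9 reads. The whole list summed to between 1.38 and 1.73 scaled FPKM in NC and between 1.30 and 2.06 in the siRNA-labelled libraries. The astroglial marker VIM stood at 929 to 1075 scaled FPKM, GFAP at 0.0573 to 0.273, and AQP4 had 0 counts. The 5 fibroblast markers summed to between 49.8 and 114 scaled FPKM in NC and between 251 and 283 in the siRNA-labelled libraries. Of these markers COL1A1 stood at 30.4 to 105 scaled FPKM in NC and at 241 to 273 in the siRNA-labelled libraries, while the means of LUM, DCN and COL3A1 were lower in the siRNA-labelled group, with their highest levels in NC library 3. Their part in the results was not tested. In bulk libraries, fewer cells of a type and less RNA per cell cannot be told apart.

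The summed level of the lysosomal genes was lower in the siRNA-labelled libraries. In scaled FPKM, that is FPKM divided by each library's TMM factor so that levels compare between libraries and per length between genes, the sum was 2642, 2682 and 2541 in NC libraries 1, 2 and 3. It was 2143, 2083 and 2084 in siRNA-labelled libraries 1, 2 and 3. The groups did not overlap, and in this sum NC library 3 lay with the other NC libraries. Its members did not: it was below both other NC libraries for 28 tested members and above both for 21. CTSK stood at 114 in NC library 3, against 48.5 and 52.2 in NC libraries 1 and 2, and TPP1 at 27.6, against 87.4 and 82.2. The sum thus adds deviations of NC library 3 in opposite directions. Without PSAP and CD63, the most abundant members, the sum was 1254 to 1276 in NC and 1038 to 1065 in the siRNA-labelled libraries, again without overlap. By role, sums of proteases, lipid-handling proteins, pump subunits, sorting proteins and membrane proteins were lower in every siRNA-labelled library than in every NC library. PSAP made up most of the lipid sum, with 942, 960 and 788 scaled FPKM of 1156, 1180 and 1057 in NC libraries 1, 2 and 3. In siRNA-labelled libraries 1, 2 and 3 it had 675, 633 and 621 of 883, 845 and 836. In NC library 3, M6PR gave 71.3 of the sorting sum of 129.7. Taken from these values, the lipid sums without PSAP overlap between the groups. Without M6PR, the sorting sum of NC library 3 lies below those of all siRNA-labelled libraries. The separation of both roles thus rests on these genes. The sums of glycosidases and sulfatases were at their lowest in NC library 3, at 87.4 and 16.8 scaled FPKM. The MiT/TFE factors did not share the order, with sums of 32.7, 32.1 and 24.3 in NC, against 32.3, 35.5 and 34.3 in the siRNA-labelled libraries.

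**Figure D1:**
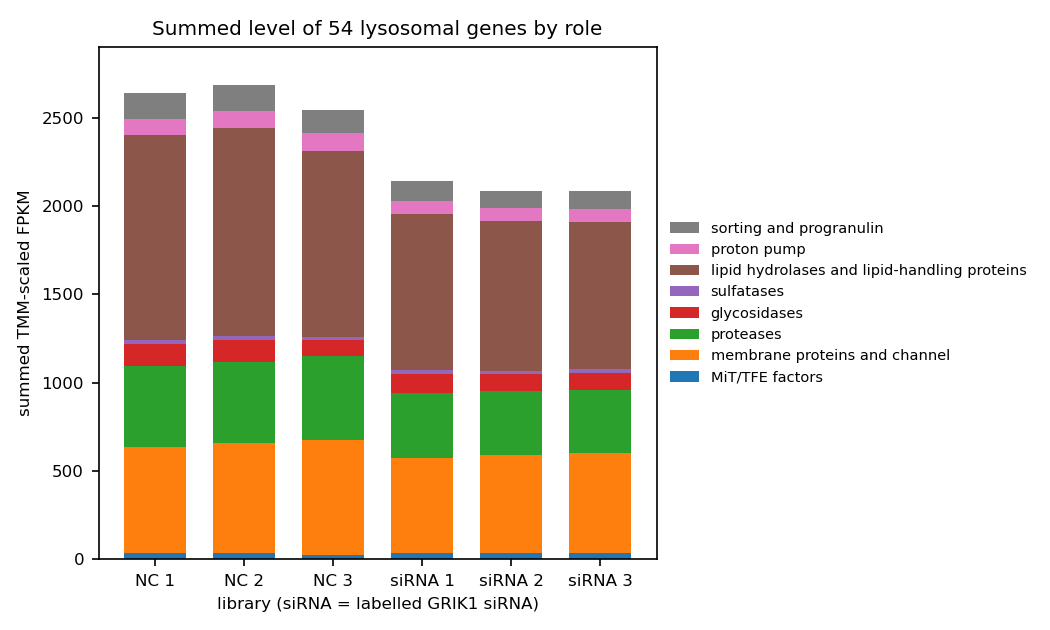
Summed level of the 54 lysosomal genes in each of the 6 libraries, in TMM-scaled FPKM on the vertical axis, stacked by role. The 3 NC libraries stand between 2541 and 2682 and the 3 siRNA-labelled libraries between 2083 and 2143, and lipid-handling proteins and membrane proteins make up most of each bar.

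Gene by gene, 2 of the 50 tested members passed the test with all 6 libraries, CTSF and NAGLU, and both fell (edgeR quasi-likelihood test, adjusted p under 0.05 over 15870 genes). That is 4% of the members, where 1.48% of all tested genes fell. Neither of them changed by more than 1 on the log2 scale, where 0.542% of all genes fell by that much. No member rose, where 1.61% of all genes did. The 1 member with a higher level at an unadjusted p under 0.05 has no share of all genes beside it here. DESeq2 and limma called 0 members higher as well. DESeq2 called 7 members lower, CTSF, NAGLU, CTSK, CTSS, ASAH1, PSAP and ATP6V1A, in a fit that called 5.14% of all genes lower. With no filter 7 were lower too, ARSA and M6PR among them, beside 1.98% of all genes, and limma called 0, beside 0.882%. At an unadjusted p under 0.05, 12 members or 24% were lower, against 13.2% of all genes. The median log2 fold change of the members was -0.18, ranging from -1.04 to 0.38, beside a median of -0.02 over all tested genes. Fitted values were below 0 for 39 members and above 0 for 11. The groups did not overlap for 16 members. For 13 of them, 26%, the siRNA-labelled libraries were lower (19% of all genes), and for 3 they were higher (19.4% of all genes).

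Without NC library 3, 27 members fell and 3 rose. The 27 are 54% of the tested members, where 18.3% of all genes fell in that fit, and the 3, 6%, stand beside 16.9% of all genes that rose. The median of the members was then -0.24, from -1.25 to 0.39, beside 0.01 over all genes. The 5 members with the largest changes were ARSA, NAGLU, SGSH, CTSF and CTSD, all lower, and the members that rose were LGMN, LIPA and PPT1. ARSA and NAGLU, 2 of the lower members, changed by more than 1 on the log2 scale, where 1% of all genes were lower by that much. This fit rests on 2 NC libraries. With any other library left out in its place, 0 genes of the whole table passed.

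**Figure D2:**
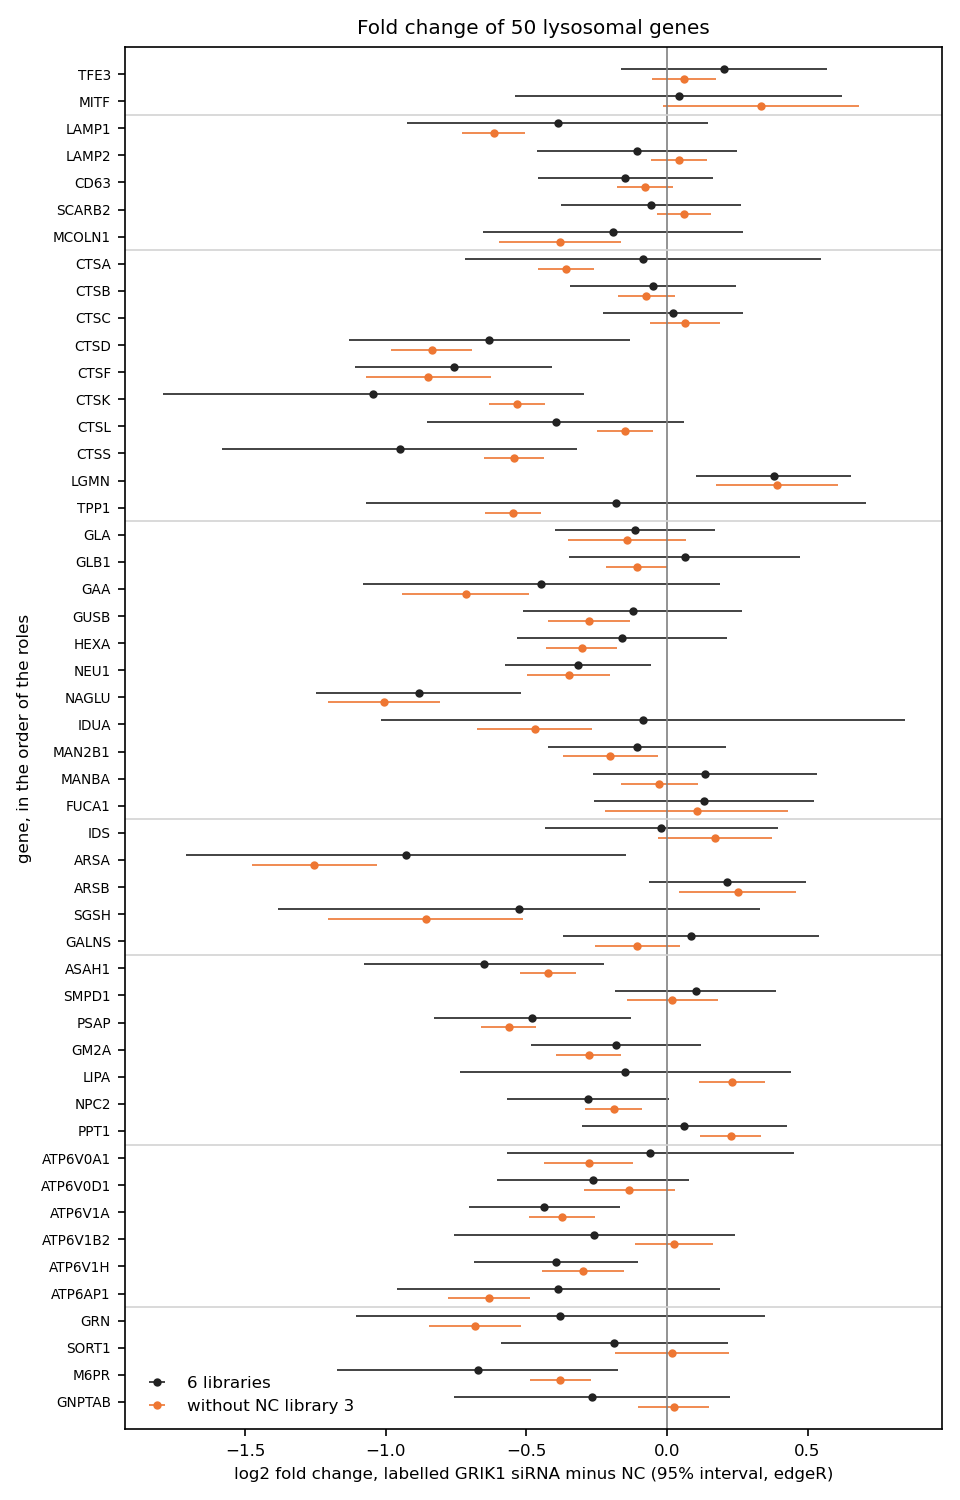
Log2 fold change of each of the 50 tested lysosomal genes, siRNA-labelled libraries over NC, with all 6 libraries and without NC library 3. Of the 50 fitted values with all libraries, 39 lie below 0, and CTSF and NAGLU alone pass the test.

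**Figure D3:**
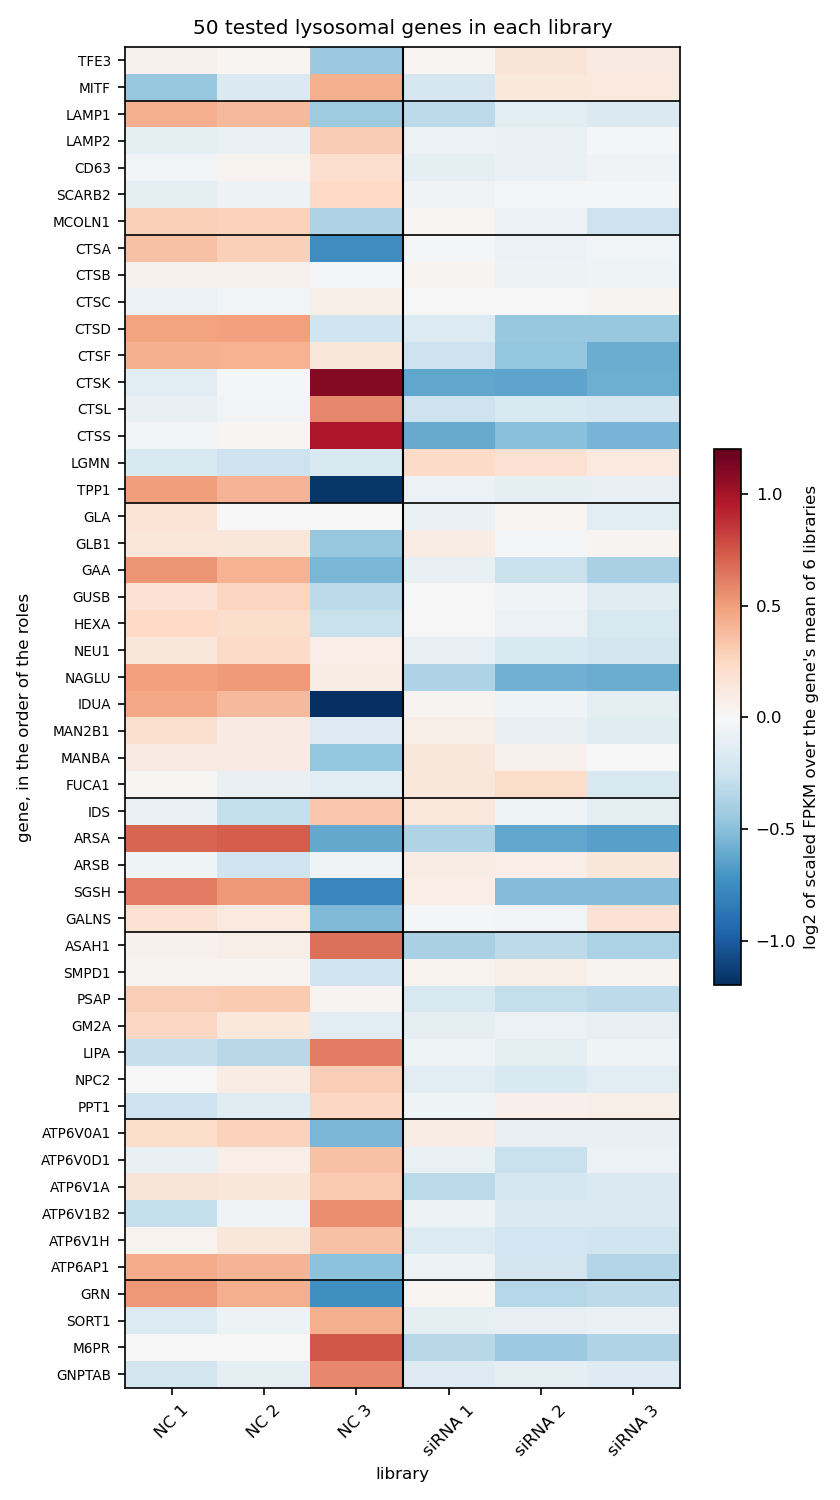
Level of the 50 tested lysosomal genes in each library, as the log2 of scaled FPKM over the mean of the 6 libraries, in the order of their roles, with red above and blue below that mean. NC library 3 differs in colour from NC libraries 1 and 2 in many rows, and the 3 siRNA-labelled libraries resemble each other.

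Of the MiT/TFE factors that switch lysosomal genes on, TFE3 and MITF passed the test in neither fit and TFEB was below the filter. TFEB, the best known of them (chr6:41683978-41736259), was low in these cells. It had 0.451, 0.347 and 0.538 scaled FPKM in NC libraries 1, 2 and 3, against 0.491, 0.482 and 0.485 in the siRNA-labelled libraries, so the groups overlapped. Without the filter on low values its log2 fold change was 0.09 (SE 0.29). TFE3, on chromosome X, was the most abundant factor. Its level was 31.4, 30.7 and 22.2 scaled FPKM in NC and 30.7, 33.7 and 32.5 in the siRNA-labelled libraries, a log2 fold change of 0.20 (SE 0.16) with a 95% interval of -0.16 to 0.57. MITF, which is also the master factor of pigment cells, measured 0.877, 1.06 and 1.61 scaled FPKM in NC and 1.05, 1.31 and 1.31 in the other group, a log2 fold change of 0.04 (SE 0.25). For each of these factors NC library 3 was at one end of the range of all libraries.

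The promoters of 7 members carry TCACGTGA, a palindrome around the core of the CLEAR element, close to their start. Promoters of 300 bases, from 250 before to 50 after the start, were read from RefSeq (GRCh38.p14) for 39 of the 54 members. The palindrome TCACGTGA, which reads the same on both strands, was found in 7 of these 39 promoters or 17.9%, beside 1.18% of 27305 genes. Its longer form, with G before it and C after it, was in 7.69% of the members' promoters and in 0.421% of all, and its core CACGTG in 33.3% and in 8.77%. Each shorter motif is held within the longer one, so the counts overlap. The element is named for lysosomal genes, so a higher share among them is no independent result. A match describes the letters and is not a measured binding site. The windows below are 30 bases long, on the strand of the gene, and are shown because they carry the element named for these genes, with its letters in capitals:
ATP6V0D1, chr16:67481199-67481228, minus strand: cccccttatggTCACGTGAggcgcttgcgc
CLN3, chr16:28492058-28492087, minus strand: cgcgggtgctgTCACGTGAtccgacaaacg
CTSA, chr20:45891298-45891327, plus strand: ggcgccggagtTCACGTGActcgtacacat
GAA, chr17:80101493-80101522, plus strand: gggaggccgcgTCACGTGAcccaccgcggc
GALNS, chr16:88857104-88857133, minus strand: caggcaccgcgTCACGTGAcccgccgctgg
LAMP1, chr13:113297199-113297228, plus strand: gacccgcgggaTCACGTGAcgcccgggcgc
MCOLN1, chr19:7522571-7522600, plus strand: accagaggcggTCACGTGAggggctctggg

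GAA, LAMP1 and MCOLN1 hold a further copy in the same promoter. The element lies 60 bases before the start in ATP6V0D1 and 175 before it in GALNS. Of the 6 genes of this set that were tested, none passed with all libraries. Their log2 fold changes were -0.26 for ATP6V0D1, -0.09 for CTSA, -0.45 for GAA, 0.09 for GALNS, -0.39 for LAMP1 and -0.19 for MCOLN1. Without NC library 3, CTSA, GAA, LAMP1 and MCOLN1 fell, by 0.36 to 0.72 on the log2 scale, and ATP6V0D1 and GALNS did not pass. That fit called 54% of all tested members and 18.3% of all genes lower.

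Among the membrane proteins, none of 5 tested members passed with all libraries or at an unadjusted p under 0.05. Without NC library 3 LAMP1 and MCOLN1 fell, beside 18.3% of all genes. CD63, a tetraspanin of late endosomes and exosomes, was the most abundant, at 424, 446 and 499 scaled FPKM in NC libraries 1, 2 and 3, against 403, 412 and 422 in siRNA-labelled libraries 1, 2 and 3. Its groups did not overlap, yet the log2 fold change of -0.15 (SE 0.13) did not pass (adjusted p = 0.508). LAMP1, the heavily glycosylated protein that lines the inner face of the membrane, gave 102, 99.3 and 56.5 scaled FPKM in NC and 61.1, 68.9 and 67.1 in the siRNA-labelled libraries. NC library 3 was the lowest of the 6 and the other NC libraries the highest, and the log2 fold change moved from -0.39 (SE 0.23) with all libraries to -0.62 (SE 0.05) without it. LAMP2, needed for the fusion of lysosomes with autophagosomes, and SCARB2, the receptor that carries glucocerebrosidase, had log2 fold changes of -0.10 and -0.06. The calcium channel MCOLN1 stood at -0.19 with all libraries and at -0.38 without NC library 3. MCOLN1 overlaps PNPLA6 on the same strand, whose mean count was 328% of its own. CLN3, the membrane protein lost in a childhood neuronal disease, was below the filter with 41, 38 and 31 reads in NC and 99, 60 and 81 in the siRNA-labelled libraries. Every library labelled GRIK1 siRNA held more CLN3 reads than every NC library, and without the filter the log2 fold change was 0.92 (SE 0.27, adjusted p = 0.0547). An unnamed gene, ENSG00000261832, overlaps CLN3 on the same strand with 15.1% of its mean count.

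Of the proteases, CTSF alone of 10 tested members passed with all libraries. Cathepsin F, a cysteine protease (ENSG00000174080, chr11:66563464-66568879, GRCh38, where no other annotated gene with more than 5% of its reads lies), had 7.84, 7.82 and 6.42 scaled FPKM in NC libraries 1, 2 and 3. In siRNA-labelled libraries 1, 2 and 3 it had 4.92, 4.25 and 3.87. The lowest NC library was above the highest siRNA-labelled library. Means were 7.36 ± 0.816 (SD, n = 3) in NC and 4.35 ± 0.5303 (SD, n = 3) in the siRNA-labelled libraries, a log2 fold change of -0.76 (SE 0.15), with a 95% interval of -1.11 to -0.41 and an adjusted p of 0.0449. It was -0.85 (SE 0.10) without NC library 3. The call was lost without any one of the other 5 libraries, with adjusted p from 0.0909 to 0.243.

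Cathepsins K and S, both cysteine proteases, were the members that NC library 3 set highest. CTSK, known from the bone matrix that osteoclasts dissolve, had the lowest fitted value of all members, with 48.5, 52.2 and 114 scaled FPKM in NC and 34.4, 34.4 and 35.3 in the siRNA-labelled libraries. The groups did not overlap, and NC library 3 was far above the other NC libraries. The log2 fold change was -1.04 (SE 0.32) with all libraries (adjusted p = 0.112) and -0.53 (SE 0.05) without NC library 3, where it passed. CTSS gave 26.2, 27.04 and 52.5 scaled FPKM in NC and 17.6, 18.9 and 18.2 in the other group, and its log2 fold changes of -0.95 (SE 0.27) and -0.54 (SE 0.05) run in the same order.

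Cathepsin D and TPP1 showed the reverse order in NC library 3. CTSD, the main aspartic protease of the lysosome, measured 49.5, 49.7 and 29.96 scaled FPKM in NC and 31.7, 25.8 and 25.8 in the siRNA-labelled libraries. NC library 3 lay among the siRNA-labelled libraries, and the log2 fold change was -0.63 (SE 0.21) with it and -0.84 (SE 0.07) without it. TPP1, a peptidase that trims tripeptides from protein ends, had 87.4, 82.2 and 27.6 scaled FPKM in NC and 58.98, 57.2 and 57.6 in the other group. Here NC library 3 was far below all others, so that the log2 fold change was -0.18 with all libraries, against -0.55 without it.

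LGMN had the highest fitted value of the proteases. Legumain cleaves after asparagine and processes several cathepsins. Its level was 4.53, 4.33 and 4.52 scaled FPKM in the NC libraries, against 6.02, 5.82 and 5.58 in the siRNA-labelled ones, without overlap and with close NC values. The log2 fold change was 0.38 (SE 0.12) with a 95% interval of 0.10 to 0.66, which did not pass with all libraries (adjusted p = 0.115) and did without NC library 3, at 0.39 (SE 0.10). CTSB, the most abundant cathepsin, was nearly level, at 113, 113 and 107 scaled FPKM in NC and 112, 105 and 106 in the other group, and its log2 fold change of -0.05 (SE 0.13) had a 95% interval of -0.35 to 0.25. CTSC, which activates serine proteases of granules, gave a log2 fold change of 0.02. CTSL and CTSA, the latter a partner of the galactosidase and sialidase complex, gave -0.40 and -0.09 with all libraries, and both fell without NC library 3, by 0.15 and 0.36 on the log2 scale. PLTP overlaps CTSA on the opposite strand with 146% of its mean count, and whether the counting used strand is not given in the sources used here.

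Cathepsins H and Z were below the filter. CTSH had 57, 37 and 10 reads in NC libraries 1, 2 and 3 and 48, 98 and 111 in siRNA-labelled libraries 1, 2 and 3, with overlap. CTSZ had 41, 39 and 21 reads in NC and 79, 62 and 64 in the other group, without overlap. The log2 fold changes of CTSH and CTSZ without the filter, 1.08 (SE 0.38) and 0.82 (SE 0.29), did not pass, and NELFCD overlaps CTSZ with 41.2% of its mean count.

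**Figure D4:**
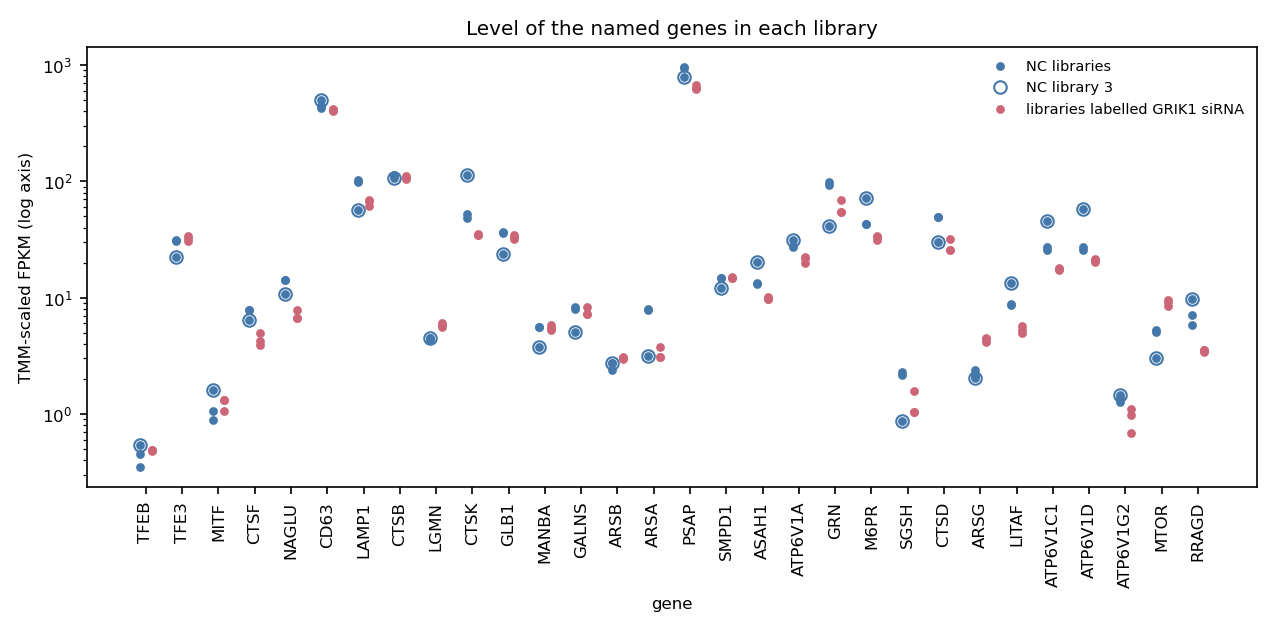
Scaled FPKM, on a log axis, of named lysosomal and pathway genes, with one point per library, blue for NC and red for the siRNA-labelled libraries, and a ring around NC library 3. CTSF and NAGLU are separated between the groups, while CTSK has its highest point and LAMP1, ARSA and GRN have a low point in NC library 3.

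The glycosidases, which strip sugars from glycoproteins, glycolipids and glycosaminoglycans, held the other member that passed. NAGLU removes N-acetylglucosamine from heparan sulfate (ENSG00000108784, chr17:42536241-42544449, with no such overlapping gene either). NAGLU had 14.1, 14.3 and 10.7 scaled FPKM in NC libraries 1, 2 and 3, against 7.76, 6.73 and 6.64 in siRNA-labelled libraries 1, 2 and 3, and the groups did not overlap. Means were 13 ± 2.03 (SD, n = 3) in NC and 7.04 ± 0.624 (SD, n = 3) in the siRNA-labelled libraries. The log2 fold change was -0.88 (SE 0.16) with a 95% interval of -1.25 to -0.52 and an adjusted p of 0.0384. It was -1.01 (SE 0.09) without NC library 3, and without any one of the other 5 libraries the adjusted p lay between 0.0804 and 0.229.

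NC library 3 was below both other NC libraries for all 11 glycosidases. GLB1, the acid beta-galactosidase used as a stain for senescent cells and the most abundant of the group, showed this with 36.3, 35.8 and 23.9 scaled FPKM in NC and 34.8, 32.1 and 33.4 in the other group. Its log2 fold change was 0.06 (SE 0.18) with all libraries, against -0.11 without NC library 3, a change of sign with no call in either fit. MANBA, which cleaves beta-mannose, had the highest fitted value, 0.14 (SE 0.17), from 5.599, 5.597 and 3.79 scaled FPKM in NC and 5.77, 5.42 and 5.27 in the other group. Its value became -0.03 without NC library 3. In the fit without NC library 3, where 18.3% of all genes fell, 5 glycosidases fell besides NAGLU. They were the glycogen-degrading GAA (-0.72), the glucuronidase GUSB (-0.28), the ganglioside hydrolase subunit HEXA (-0.30), the sialidase NEU1 (-0.35) and the iduronidase IDUA (-0.47), all on the log2 scale. SLC26A1 overlaps IDUA on the opposite strand with 11.1% of its mean count. NEU1 was separated between the groups in all 6 libraries, at a log2 fold change of -0.32 (SE 0.11). GLA, MAN2B1 and FUCA1, which act on galactose, mannose and fucose, passed in neither fit, at -0.11, -0.11 and 0.13 with all libraries. GLA shares its locus with RPL36A, whose mean count was 568% of its own.

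None of the 5 sulfatases passed with all libraries, and 1 was lower at an unadjusted p under 0.05, beside 13.2% of all genes. ARSA, which removes sulfate from the myelin lipid sulfatide (ENSG00000100299, chr22:50622754-50628173), had the lowest fitted value among them. It measured 7.798, 7.96 and 3.13 scaled FPKM in NC libraries 1, 2 and 3, against 3.73, 3.105 and 3.06 in siRNA-labelled libraries 1, 2 and 3. NC library 3 was at the level of the siRNA-labelled libraries, well below the other NC libraries. Its log2 fold change was accordingly -0.93 (SE 0.34) with all libraries (adjusted p = 0.149) and -1.25 (SE 0.10) without NC library 3, the largest of all members in that fit. SGSH, the sulfamidase of heparan sulfate, had 2.29, 2.14 and 0.8695 scaled FPKM in NC and 1.58, 1.04 and 1.04 in the other group, and its log2 fold change went from -0.53 (SE 0.37) to -0.86 (SE 0.16). SLC26A11 overlaps SGSH on the opposite strand with 27.9% of its mean count. ARSB, which acts on dermatan sulfate, was the sulfatase with the highest fitted value, 0.21 (SE 0.12), from 2.71, 2.38 and 2.73 scaled FPKM in NC and 3.002, 2.98 and 3.105 in the other group. Its groups did not overlap, and it passed in neither fit. GALNS, the most abundant sulfatase, stood at 8.31, 7.98 and 5.103 scaled FPKM in NC and 7.24, 7.18 and 8.26 in the other group, a log2 fold change of 0.09 (SE 0.20), or -0.10 without NC library 3. TRAPPC2L overlaps GALNS with 85.2% of its mean count. IDS, the sulfatase lost in Hunter syndrome, gave -0.02, and its near-identical pseudogene makes its count uncertain. An unnamed gene, ENSG00000241489, overlaps IDS on the same strand with 12.3% of its mean count.

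The lipid group held the most abundant lysosomal gene. PSAP, the precursor of the saposins that present lipids to their hydrolases (ENSG00000197746, chr10:71816298-71851251), took 0.218% to 0.299% of all reads in NC and 0.198% to 0.216% in the siRNA-labelled libraries. In scaled FPKM it had 942, 960.2 and 788 in NC libraries 1, 2 and 3, against 675, 633 and 621 in siRNA-labelled libraries 1, 2 and 3, without overlap. The means were 897 ± 94.8 (SD, n = 3) in NC and 643 ± 28.1 (SD, n = 3) in the siRNA-labelled libraries. The log2 fold change of -0.48 (SE 0.15), with a 95% interval of -0.83 to -0.13, did not pass with all libraries (adjusted p = 0.117) and passed without NC library 3, at -0.56 (SE 0.05). ASAH1, the acid ceramidase, had the lowest fitted value of the group, with 13.2, 13.3 and 20.03 scaled FPKM in NC and 9.69, 10.2 and 9.78 in the other group. Its groups did not overlap either, and its log2 fold change was -0.65 (SE 0.18) with all libraries, against -0.42 (SE 0.05) without NC library 3. SMPD1, the acid sphingomyelinase, had the highest fitted value of the group. It gave 14.6, 14.6 and 12.1 scaled FPKM in NC and 14.7, 14.96 and 14.7 in the other group, without overlap, and its log2 fold change was 0.10 (SE 0.12) with a 95% interval of -0.18 to 0.39. The sterol carrier NPC2 and the ganglioside activator GM2A fell without NC library 3, by 0.19 and 0.28 on the log2 scale.

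LIPA and PPT1 rose without NC library 3, although that library was the highest of all for both. LIPA, which hydrolyses cholesteryl esters, had 19.1, 18.4 and 35.6 scaled FPKM in NC and 22.3, 21.4 and 22.4 in the siRNA-labelled libraries, and its log2 fold change was -0.15 with all libraries, against 0.23 without NC library 3. PPT1, which removes palmitate from proteins, had 57.1, 61.5 and 80.6 scaled FPKM in NC, against 65.6, 71 and 71.3 in the other group, and log2 fold changes of 0.06 and 0.23. IFIT3 overlaps LIPA with 15.2% of its mean count, and ISCA2 overlaps NPC2 with 15%. The sign for LIPA thus differed between the fits, and that for PPT1 did not.

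At an unadjusted p under 0.05, 2 of the 6 pump subunits were lower, beside 13.2% of all genes. All 6 had fitted values below 0 with all libraries, from -0.44 to -0.06, and none passed. ATP6V1A, the catalytic subunit of the cytosolic domain and the most abundant and most changed of them, was also separated between the groups. It had 27.8, 27.4 and 31.1 scaled FPKM in NC libraries 1, 2 and 3, against 19.98, 21.8 and 22.1 in siRNA-labelled libraries 1, 2 and 3, a log2 fold change of -0.44 (SE 0.12) with an adjusted p of 0.0834. Without NC library 3 it was -0.37 (SE 0.06), and it fell in that fit, beside 18.3% of all genes. ATP6V0A1, ATP6V1H and the accessory protein ATP6AP1 fell too, by 0.28, 0.30 and 0.63 on the log2 scale. ATP6V0D1 and ATP6V1B2 passed in neither fit, with -0.13 and 0.02 in the second. ATP6V0A1, a membrane subunit, had the fitted value nearest to 0, with 5.41, 5.62 and 3.17 scaled FPKM in NC and 4.94, 4.32 and 4.37 in the other group, and NC library 3 was its lowest library.

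Among the sorting genes, M6PR, the smaller of the mannose 6-phosphate receptors, was separated between the groups. It had 42.7, 42.5 and 71.3 scaled FPKM in NC and 33.8, 31.4 and 32.96 in the siRNA-labelled libraries, with NC library 3 the highest. Its log2 fold change was -0.67 (SE 0.21) with all libraries (adjusted p = 0.119) and -0.38 (SE 0.05) without NC library 3. PHC1 overlaps M6PR on the opposite strand with 21.4% of its mean count. GRN, the precursor of the granulins and a secreted growth factor as well as a lysosomal protein, was the most abundant of the group. Its level was 98.5, 92.6 and 41.1 scaled FPKM in NC and 69.6, 54.02 and 54.9 in the other group, and NC library 3 was the lowest of the 6. For GRN the log2 fold change was -0.38 (SE 0.31) with all libraries, against -0.68 (SE 0.08) without NC library 3. SORT1, the receptor that delivers progranulin, and GNPTAB, which makes the mannose 6-phosphate tag, gave -0.19 and -0.27 with all libraries and 0.02 each without NC library 3.

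NC library 3 deviated from the other NC libraries in both directions. It was below both other NC libraries for 28 members and above both for 21, and differed from their mean by more than 0.5 on the log2 scale in 27 members, 16 lower and 11 higher. For 20 members all siRNA-labelled libraries lay between NC library 3 and NC libraries 1 and 2. For 15 of these, LAMP1, TPP1 and GRN among them, NC library 3 was the lowest, and for 5, LIPA, PPT1, LAMP2, SCARB2 and CTSC, it was the highest. Of the 27 members that fell without it, NC library 3 was below both other NC libraries for 19 and above both for 8.

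The deviation of NC library 3 ran with the base composition of the transcript. Over the 50 tested members, the log2 difference between NC library 3 and the mean of NC libraries 1 and 2 had a Pearson r of -0.715 and a Spearman rho of -0.718 with the GC content of the longest transcript. Over 15529 tested genes r was -0.332. The points are genes of the same libraries and are no independent replicates. For the 25 members at or below the median GC of 51.4% the median difference was 0.32, and for the 25 above it -0.53. The fold change without NC library 3 also ran with GC among the members (r = -0.548, beside -0.067 over all genes), with a median of -0.03 in the lower GC members and -0.35 in the upper ones, of which 11 and 16 fell. With a GC correction in that fit, all 27 lower and 3 higher members were called again, beside 19.3% lower and 18.3% higher of all genes. With a GC correction and all 6 libraries, 3 members were called lower, CTSD, CTSF and NAGLU, beside 2.73% of all genes.

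**Figure D5:**
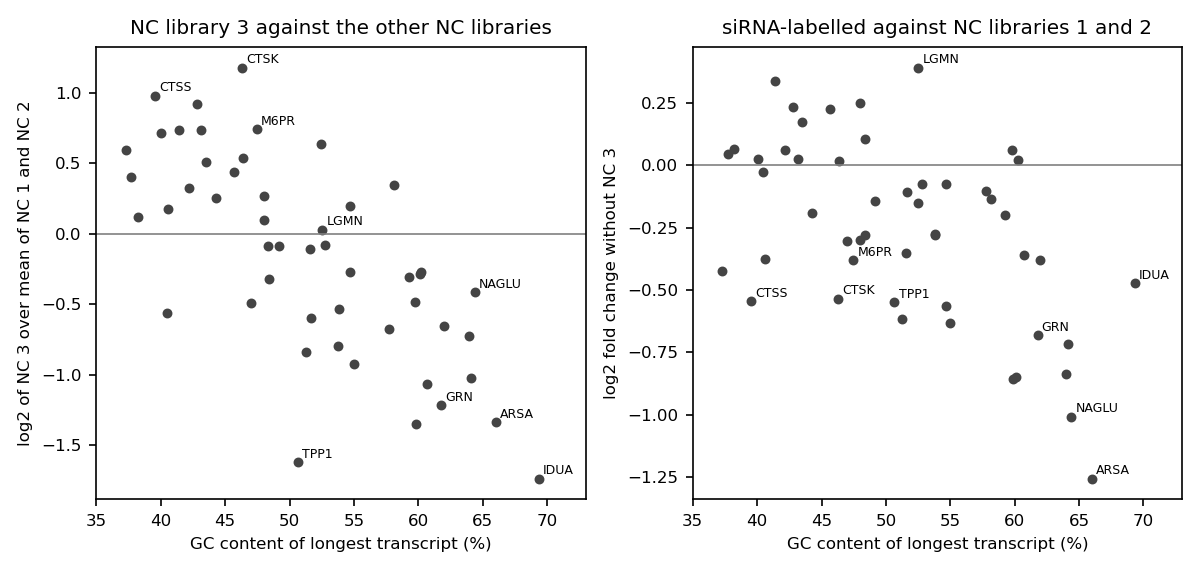
GC content of the longest transcript (percent, horizontal axis) of the 50 tested lysosomal genes against the log2 difference of NC library 3 from NC libraries 1 and 2 (left) and against the log2 fold change without NC library 3 (right), one point per gene. The left panel falls with GC (r = -0.715) and the right panel less so (r = -0.548).

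Further genes of the pathway were taken from 3 lists. Of 36 other lysosomal genes tested, 1 rose and 1 fell with all libraries, beside 1.61% and 1.48% of all genes. ARSG, a sulfatase of heparan sulfate (ENSG00000141337, chr17:68259182-68422731), rose from 2.37, 2.11 and 2.05 scaled FPKM in NC to 4.12, 4.39 and 4.47 in the siRNA-labelled libraries, a log2 fold change of 0.99 (SE 0.13). LITAF, a membrane protein of late endosomes (ENSG00000189067, chr16:11547722-11636381), fell from 8.84, 8.66 and 13.2 to 5.7, 5.27 and 4.96, a log2 fold change of -0.95 (SE 0.19). The groups of both did not overlap. In the fit without NC library 3, 5 of the 36 rose and 14 fell, beside 16.9% and 18.3% of all genes. Of 16 other pump subunits none passed the edgeR test with all libraries. At an unadjusted p under 0.05, 4 of these subunits were lower, beside 13.2% of all genes. None was higher, a direction for which the share of all genes is not given here. Their largest changes were -0.89 for ATP6V1C1, -0.82 for ATP6V1D and -0.56 for ATP6V1G2. In other fits of all 6 libraries ATP6V1C1 passed, with DESeq2 (adjusted p = 0.00790), without the filter (0.00827) and with GC correction (0.0372), and ATP6V1D passed without the filter (0.0379). Of these subunits 1 rose and 5 fell without NC library 3, beside the same 16.9% and 18.3% of all genes.

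Of 17 nutrient regulators of TFEB tested, MTOR rose and RRAGD fell with all libraries, where 1.61% and 1.48% of all genes did. MTOR, the kinase that keeps TFEB in the cytoplasm, measured 5.28, 5.096 and 3.05 scaled FPKM in NC and 9.59, 9.12 and 8.53 in the siRNA-labelled libraries, a log2 fold change of 1.02 (SE 0.21) with an adjusted p of 0.0497. RRAGD, a GTPase that brings TFEB to the lysosomal surface and is itself a target of these factors, measured 5.86, 7.03 and 9.71 scaled FPKM in NC and 3.38, 3.55 and 3.53 in the other group, a log2 fold change of -1.11 (SE 0.20) with an adjusted p of 0.0378. All libraries labelled GRIK1 siRNA were above all NC libraries for MTOR and below them for RRAGD. NC library 3 was the outermost NC library in both, and without it the log2 fold changes were 0.81 (SE 0.06) and -0.88 (SE 0.10). In that fit 3 of the 17 regulators rose and 5 fell, where 16.9% and 18.3% of all genes did, so that the share that rose was near that of all genes. The calls of ARSG, LITAF, MTOR and RRAGD were, like those of CTSF and NAGLU, lost without any one of the other 5 libraries. The MTOR call was also lost at a minimum of 1 FPKM (adjusted p = 0.0510) and with limma (0.0693 and 0.0849 at pseudocounts of 1 and 0.1), and that of LITAF with limma (0.05001 and 0.0552).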

How the data were processed

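The authors deposited whole-number counts of reads per gene, without normalization, and FPKM values computed from them per library total and exonic length. A recomputation gave 100% of the deposited FPKM within a tolerance of 0.0051. The submitters' processing notes name cutadapt 1.9.1, HISAT2, HTSeq and GRCh38. Total RNA had been extracted with Trizol and made into libraries with a VAHTS V8 kit, and the strand setting is not given in the sources used here. Libraries were grouped by label, with 3 per group.

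Counts were compared with the quasi-likelihood test of edgeR 4.0.16 (R 4.3.3) with TMM scaling, no block, and Benjamini-Hochberg adjustment over the 15870 genes with a mean FPKM of at least 0.5. Calls used an adjusted p under 0.05. The script was tested on simulated counts. Alternatives were RLE scaling, other filters, DESeq2 1.42.0, limma 3.58.1 on log2(FPKM + 1) or log2(FPKM + 0.1), a replicate block, each library left out, and a fold threshold. GC correction, and the removal of NC library 3 together with another change, were added after seeing the data. GC content came from the longest GENCODE 29 transcript, and promoters from RefSeq, of which 39 of 54 members had one. Depth was 11099909 to 14006968 counts per library, so that genes with few reads, such as TFEB, give wide intervals, which cover counting error and the spread of these libraries only. No 2 libraries agreed within sampling noise.

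Members and lists were chosen with earlier results of these data known. Values in every library are given for TFEB, TFE3 and MITF, for members called with all libraries, and, within each role, for the most abundant and those with the lowest and highest fitted values. Values of other members, such as CTSS, TPP1, LIPA, PPT1 and ATP6V0A1, were printed after they had been seen.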

Additional observations from a re-analysis of the deposited data

How the results depend on the processing

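With RLE scaling, or a minimum of 1 FPKM, the same counts of 0 higher and 2 lower members were called. Lower members numbered 7 without a filter (1.98% of all genes), 7 with DESeq2 (5.14%), 0 with limma at a pseudocount of 1 (0.882%) or 0.1 (0.662%), 0 when a log2 fold change over 1 was also asked (0.542%), and 3 with GC correction (2.73%). With the replicate number as a block, 0 were lower, with a median of -0.155, and 0 of all tested genes were called, so that the calls of ARSG, LITAF, MTOR and RRAGD were lost too. The numbers did not pair the libraries (correlations of same-numbered deviations of -0.07, 0.044 and -0.043). With 1 library left out, 0 to 3 members were higher and 0 to 27 lower, with medians from -0.24 to -0.17. All counts above 0 came from leaving out NC library 3. In each of the other 5 such fits 0 of all genes were called. Without NC library 3 and with RLE scaling, DESeq2 or GC correction, 3 were higher and 27 lower, with medians of -0.24. Of all genes, 17%, 13% and 18.3% were higher and 18.2%, 13.5% and 19.3% lower in these fits, in that order. Leaving out a further library gave 2 higher and 26 lower without NC library 1, 2 and 21 without NC library 2 (median -0.24), 4 and 30 without library 1 labelled GRIK1 siRNA (median -0.27), 3 and 27 without library 2, and 3 and 26 without library 3. Leaving out NC library 1 or 2 as well left 1 NC library, which was assumed to vary like the siRNA-labelled ones, so these counts rest on the spread of that group alone. With limma the median was -0.058 and -0.066. Among the genes named by the rule, signs changed only where no call was made, for CTSB, MITF, GLB1, MANBA and GALNS. CTSB was 0.037 in both limma fits. Left-out libraries gave MITF values from -0.13 to 0.34, GLB1 from -0.11 to 0.17, MANBA from -0.027 to 0.23 and GALNS from -0.11 to 0.21. With GC correction and without NC library 3 these last 3 were -0.12, -0.058 and -0.048. The cause was not tested. Of the other single-gene results, 339 kept direction and side, 39 gained a call and 45 lost one. Some 8 to 20 GRIK1 reads per library leave its level imprecise.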
